A study of Mus musculus with 9 samples.

Results

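The RNA of 8 genes for protease inhibitors was followed in neutrophils of pancreatic tumor-bearing mice. These are 5 stefin A genes (Stfa1, Stfa2, Stfa2l1, Stfa3 and BC100530), the stefin B gene Cstb, the secretory leukocyte peptidase inhibitor gene Slpi and the serpin gene Serpinb1a. They were chosen by gene symbol from the 46517 genes of the expression table. Neutrophils had been sorted on day 27 after tumor cells were transplanted into the pancreas of C57BL/6 mice (orthotopic transplanted, or OT, mice), as live CD45+ cells that carried Ly6G and Ly6C and lacked CD3, B220 and NK1.1. There were 3 libraries each from bone marrow, blood and tumor, from 3 independent experiments with a pool of 5 mice each. The paper describes the compartments as coming from the same mouse. The labels do not say whether libraries of the same number share an experiment. The labels give the bone marrow cells as Ly6G.hi and the others as Ly6G+. All 3 compartments came from mice with a tumor grown from 1 cell line, which came from a genetic mouse model of pancreatic cancer, and neutrophils of tumor-free mice are not analysed here. The comparisons ask how the RNA of these inhibitors differs between the marrow, where neutrophils form, the circulation and the tumor.

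Stefins are small proteins of the cystatin family that block papain-like cysteine proteases such as cathepsins B, L, H and S, mainly inside the cell. Mice carry a cluster of stefin A copies, which myeloid cells express, and a single stefin B gene. Slpi and Serpinb1a act on serine proteases. Slpi encodes a secreted protein with WAP domains that blocks neutrophil elastase and cathepsin G, and Serpinb1a encodes a cytosolic serpin that traps elastase, cathepsin G and proteinase 3, the enzymes that neutrophils store in azurophil granules.

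The stefin A genes lie close together and resemble each other, which bears on how their reads can be assigned. All 5 lie on chromosome 16 within 298582 bases, chr16:36156811-36455392 (GRCm38, GENCODE M21). Stfa2l1 is at chr16:36156811-36161953 and Stfa1 at chr16:36276951-36285373, both on the plus strand. BC100530 is at chr16:36359382-36367748, Stfa2 at chr16:36403992-36408457 and Stfa3 at chr16:36450537-36455392, all on the minus strand. Each has 3 exons. In the table their identifiers are ENSMUSG00000059657.4 (Stfa2l1), ENSMUSG00000071562.5 (Stfa1), ENSMUSG00000071561.2 (BC100530), ENSMUSG00000022902.7 (Stfa2) and ENSMUSG00000054905.2 (Stfa3). The other genes lie apart, with Cstb at chr10:78425669-78427622 on the plus strand, Slpi at chr2:164354070-164389095 and Serpinb1a at chr13:32842092-32851185, both on the minus strand. Across the 10 pairs of stefin A members, aligned coding bases were between 77.7% and 97.9% identical. Stfa1 and BC100530 were the most alike (97.9%), followed by Stfa2 and Stfa2l1 (96.4%). Against Cstb the identity was 56.9% to 62.3%.

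A stretch of 120 coding bases shows these pairs. It starts at coding base 1 in Stfa1 and BC100530 and at coding base 19 in the others, and it takes 66 bases of exon 1 and 54 bases of exon 2. The sequences are from the GENCODE M21 transcripts, 5′ to 3′ on the coding strand, and capitals mark bases that differ from the most frequent base at that position, with ties settled alphabetically.
Stfa1: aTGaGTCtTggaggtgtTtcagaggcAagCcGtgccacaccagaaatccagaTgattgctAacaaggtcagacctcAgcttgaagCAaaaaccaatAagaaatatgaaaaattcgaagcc
BC100530: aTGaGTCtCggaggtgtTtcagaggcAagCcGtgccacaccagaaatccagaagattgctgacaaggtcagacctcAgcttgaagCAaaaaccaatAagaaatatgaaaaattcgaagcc
Stfa2: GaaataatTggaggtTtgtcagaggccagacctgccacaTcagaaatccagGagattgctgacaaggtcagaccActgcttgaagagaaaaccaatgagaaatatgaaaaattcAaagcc
Stfa2l1: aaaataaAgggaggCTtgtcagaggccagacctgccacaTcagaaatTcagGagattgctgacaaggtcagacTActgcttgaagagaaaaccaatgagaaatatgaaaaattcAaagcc
Stfa3: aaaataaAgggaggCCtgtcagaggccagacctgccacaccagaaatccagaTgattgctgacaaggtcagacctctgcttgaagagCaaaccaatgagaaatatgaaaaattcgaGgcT
Of the 120 positions, 91 were alike in all 5 genes. Stfa1 and BC100530 differed at 3 of the 120 bases and Stfa2 and Stfa2l1 at 6, whereas the other pairs differed at 11 to 25.

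Reads were just over 150 bases long from each end of a fragment. No stretch of 150 bases of any member's transcript was found in a transcript of another gene. Over 100 bases, however, 22.3% of the windows of the BC100530 transcript were found elsewhere (in Stfa1, BC117090 and Gm15845) and 1.9% of those of Stfa1 (in BC100530). Over 50 bases these shares were 48.9% for BC100530, 25.4% for Stfa1, 24.6% for Stfa2l1 and 15.9% for Stfa2. Stfa3, Cstb and Slpi shared no window of 50 bases, and Serpinb1a shared 3.4%, with Serpinb1b, Serpinb1c and a pseudogene. How the authors' counting treated reads with several matches is not given in the sources used here, so values of Stfa1, BC100530, Stfa2 and Stfa2l1 are uncertain as to which paralog the reads came from. The noncoding gene Gm15845 lies antisense to an exon of BC100530 and had at most 4 reads in any library. Mir7678 lies in an exon of Slpi. It had 51 to 67 reads per bone marrow library, 39 to 66 per blood library and 123 to 236 per tumor library. The part of these reads in the values of Slpi was not tested.

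**Figure D1:**
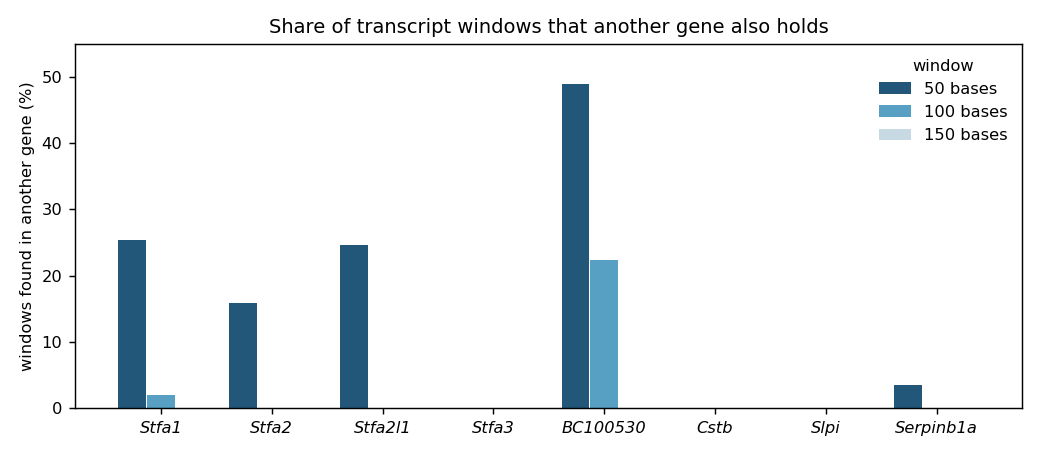
Bars give, for each gene, the percentage of 50-, 100- and 150-base windows of its transcript (longest coding sequence) that occur exactly, on either strand, in a transcript of another gene. BC100530 has the highest shares, 48.9% at 50 bases and 22.3% at 100 bases, and at 150 bases every share is 0.

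The table holds log2 FPKM (the log2 of reads per 1000 bases of gene length and per 1000000 reads), and the steps between low values gave back the whole number of reads for all 46517 genes. The bone marrow libraries held 7108871 to 7949367 reads, those of blood 4580807 to 6830374 and those of tumor 5446499 to 6969557. The authors' scaling multiplied these totals by 0.796 to 0.882 (bone marrow), 0.818 to 0.863 (blood) and 1.09 to 1.22 (tumor), which lowers tumor values relative to plain totals. With plain totals the log2 fold changes of all 7794 genes tested shifted by a median of 0.45 for tumor against either other compartment. The gene length in the FPKM included introns for the stefin A members and was 9.38 to 12.3 times their exon length, so their FPKM is low for the reads they had. Only 4 of the 8 members (Stfa2l1, Cstb, Slpi and Serpinb1a) passed the filter of the main test, which asks for 3 or more libraries with a log2 FPKM above 0. Over the 9 libraries, Stfa1 had 265 reads in all, BC100530 had 189, Stfa2 had 126 and Stfa3 had 49. For these the text gives limma and limma-voom fits of the 17714 genes that reached 5 reads in at least 1 library. Limma with this filter on reads was chosen once the data had been seen. P-values were adjusted over all genes tested (Benjamini-Hochberg), and "called" means an adjusted p under 0.05.

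All 9 defining neutrophil genes on a marker list had reads in every compartment. Their summed level was 49500 to 50300 reads per 1000000 (RPM) in bone marrow and lower elsewhere, with 33400 to 34100 for blood and 10900 to 12900 for tumor. Tumor libraries also held more reads of markers of other cell types. Markers of tumor epithelium summed to 2980 to 6270 RPM in tumor (12 of 12 genes with reads), against 52.2 to 57.5 in bone marrow (11 of 12) and 42 to 203 in blood (12 of 12). Fibroblast markers summed to 1110 to 1360 RPM in tumor and at most 9.99 elsewhere, acinar markers to 648 to 2900 and at most 7.32, and endothelium markers to 89.2 to 125 and at most 35. Summed macrophage markers were highest in blood, at 1410 to 1590 RPM, against 457 to 471 in bone marrow and 618 to 834 in tumor. Platelet markers (441 to 601 RPM), red cell markers (245 to 471) and lymphocyte markers (81.9 to 149) were also highest in blood. Genes of the macrophage list did not all follow their sum. In the main limma fit of tumor against blood, C1qb was called higher (log2 fold change 1.04) and Apoe lower (-0.82). C1qb was not called with median centring (limma adjusted p = 0.0514), and Apoe not with plain library totals (0.118). Some defining markers had 0 reads in a whole compartment, namely Cldn4 (epithelium) and Pdgfra (fibroblasts) in bone marrow, Lum and Pdgfrb (fibroblasts), Cdh5 and Tek (endothelium) in blood, and Amy2a5 (acinar) in both, while Ncr1 (lymphocytes) had 0 in tumor and Prss1 (acinar) in every library. In sorted bulk RNA, fewer cells of a type and less RNA per cell cannot be told apart.

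The inhibitors took different paths from marrow to tumor. Summed RNA of the 5 stefin A members was lowest in the tumor libraries, and Cstb was 6.95-fold higher there than in blood. Slpi peaked in blood, and Serpinb1a was by far highest in bone marrow. The defining neutrophil genes given above were also lowest in the tumor libraries. The part of cell content in the lower stefin A and Slpi values there was not tested. Of the 4 members tested in the main fit, 2 were called lower in tumor than in blood (Stfa2l1 and Slpi), where 34.5% of all 7794 genes tested were, and 2 were called higher (Cstb and Serpinb1a), where 28.1% were. Against bone marrow, 2 were called lower in tumor (Stfa2l1 and Serpinb1a; 32.9% of all genes) and 1 higher (Cstb; 22.4%). In blood against bone marrow, 1 was called higher (Slpi; 20.6%) and 1 lower (Serpinb1a; 23.6%). In limma with the filter on reads all 8 members were tested. In tumor against blood, it called 4 lower (20.2% of all genes) and 2 higher (32.4%). Against bone marrow, it called 5 lower in tumor (18.4%) and 1 higher (25.2%), and for blood 1 lower (16.3%) and 1 higher (12.6%). Limma-voom called 4 lower (21.9%) and 2 higher (33.1%) in tumor against blood, 6 lower (21%) and 1 higher (29.3%) in tumor against bone marrow, and 2 lower (16.4%) and 2 higher (13.8%) in blood against bone marrow. With no filter, limma called 4 lower in tumor than in bone marrow (5.53% of all 46517 genes). That share is low in part because 22656 of these genes had no read. The libraries of 2 compartments did not overlap on the log2 FPKM scale for 6 members in tumor against blood, 4 of them below (23.6% of the 17714 genes) and 2 above (35.8%). In tumor against bone marrow this held for 6 below (23.7%) and 1 above (32%), and in blood against bone marrow for 5 below (25.1%) and 2 above (20.1%). As the paralogs may share reads, these counts are not counts of independent genes.

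**Figure D2:**
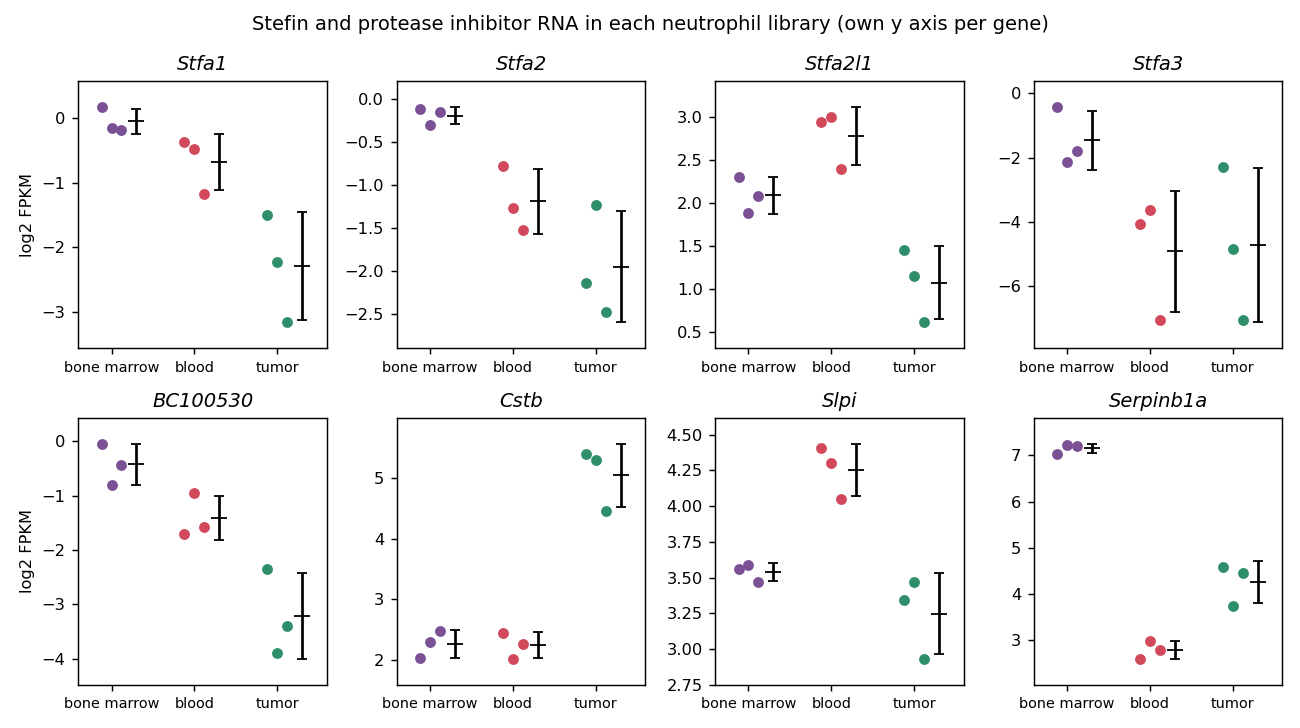
Points show log2 FPKM of each gene in the 3 libraries of bone marrow, blood and tumor, and the line with bars beside them the mean ± SD (n = 3), on a y axis of its own for each gene. Stfa2l1 and Slpi are highest in blood, Cstb in tumor and Serpinb1a in bone marrow, while Stfa1, Stfa2 and BC100530 step down from bone marrow to tumor by their means.

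Stfa2l1 had the most reads of the 5 stefin A members in every library. Its log2 FPKM was 2.31, 1.88 and 2.08 in bone marrow, 2.95, 3.01 and 2.40 in blood, and 1.45, 1.15 and 0.61 in tumor. These values came from 107 to 170, 127 to 231 and 62 to 87 reads per library. No library of one compartment overlapped with another compartment, and tumor was lowest. Stfa2l1 was 3.29-fold lower in tumor than in blood (log2 fold change -1.72, standard error 0.256, limma adjusted p = 0.000624), a call that held in all 22 alternatives. Relative to bone marrow it was 2.03-fold lower (log2 fold change -1.02, standard error 0.256, adjusted p = 0.0104). Against bone marrow the call was lost with plain library totals (log2 fold change -0.57, adjusted p = 0.0837) and with no filter (adjusted p = 0.0615). The difference of 0.70 between blood and bone marrow missed the threshold (standard error 0.256, adjusted p = 0.0583) and passed it in 9 of 22 alternatives.

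Stfa1 and BC100530, the pair with the most similar coding sequences, both had their highest values in bone marrow. Stfa1 had 62, 42 and 48 reads in the bone marrow libraries, 25, 33 and 17 in blood, and 18, 13 and 7 in tumor. On the log2 FPKM scale this was 0.18, -0.14 and -0.18, then -0.37, -0.47 and -1.17, then -1.49, -2.23 and -3.16. The compartments did not overlap on this scale. In limma with the filter on reads, Stfa1 was lower in tumor than in bone marrow (log2 fold change -2.25, standard error 0.429, adjusted p = 0.00319) and than in blood (-1.62, standard error 0.429, adjusted p = 0.0125). The second call was also made by limma-voom (adjusted p = 0.0147), but not with no filter (0.0594) and, in limma-voom, not without tumor replicate 3 (log2 fold change -1.21, adjusted p = 0.0542). The difference of -0.62 between blood and bone marrow did not pass (adjusted p = 0.337).

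BC100530 had 54, 27 and 41 reads in the bone marrow libraries, 10, 24 and 13 in blood, and 10, 4 and 6 in tumor. Its log2 FPKM was -0.04, -0.80 and -0.43 in bone marrow, -1.70, -0.95 and -1.57 in blood, and -2.34, -3.89 and -3.40 in tumor, again without overlap. BC100530 was lower in tumor than in bone marrow (log2 fold change -2.79, standard error 0.443, reads-filtered limma, adjusted p = 0.00122) and than in blood (-1.80, standard error 0.443, adjusted p = 0.00901). With no filter the call against blood was made as well (adjusted p = 0.0396). In limma-voom it was made (adjusted p = 0.0188) but lost without blood replicate 2 (adjusted p = 0.0713) or tumor replicate 2 (0.0583). The difference of -0.98 between blood and bone marrow did not pass (adjusted p = 0.137). With their reads added together, which leaves aside the assignment between the pair, Stfa1 and BC100530 had 12.2 to 17.3 reads per 1000000 of the scaled library size in bone marrow, 6.4 to 10.2 in the blood and 1.64 to 4.51 in tumor.

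Stfa2 was low in every compartment. Its reads numbered 27, 20 and 26 in bone marrow, 10, 10 and 7 in blood, and 6, 14 and 6 in tumor, which gave a log2 FPKM of -0.12, -0.31 and -0.16, then -0.78, -1.27 and -1.53, then -2.14, -1.23 and -2.48. Bone marrow was above both others, whereas blood and tumor overlapped. Stfa2 was lower in tumor than in bone marrow (log2 fold change -1.75, standard error 0.358, reads-filtered limma, adjusted p = 0.00443). The differences of -0.75 between tumor and blood (adjusted p = 0.108) and of -1.0 between blood and bone marrow (adjusted p = 0.0696) did not pass.

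Stfa3 was close to the limit of detection outside the marrow. It had 24, 6 and 9 reads in bone marrow, 1, 2 and 0 in blood, and 6, 1 and 0 in tumor. One bone marrow library held most of the marrow reads, and a tumor library had as many reads as the lowest bone marrow library, although on the log2 FPKM scale every bone marrow library was above the others. Per scaled library size, the summed reads were 9.74 times higher in bone marrow than in blood (39 against 3 reads, 95% exact interval 3.1 to 49.3, counting error only) and 6.37 times higher than in tumor (39 against 7 reads, 2.82 to 16.9). The tools differed on these values, since limma-voom called bone marrow higher than blood (adjusted p = 0.0402) and than tumor (adjusted p = 0.0154), and limma with the filter on reads called neither (adjusted p = 0.086 and 0.0757). In limma-voom the call against tumor was lost without bone marrow replicate 1 (adjusted p = 0.0667), tumor replicate 2 (0.0523) or tumor replicate 3 (0.0944). The call against blood was lost without bone marrow replicate 1 (0.144), bone marrow replicate 3 (0.063), or blood replicate 1 (0.0843), 2 (0.0813) or 3 (0.175).

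Added up over the 5 genes, stefin A reads per 1000000 of scaled library size were 50.4, 35.7 and 40.4 in bone marrow, 51.4, 53.7 and 35.0 in blood, and 20.5, 15.6 and 10.2 in tumor. Blood and bone marrow overlapped, and every tumor library was below both. For tumor, the log2 ratio of the sums was -1.60 to blood and -1.45 to bone marrow, and for blood it was 0.15 to bone marrow. With plain library totals these ratios were -1.16, -1.01 and 0.15. The sum leaves out stefin A-like genes of the same cluster, which did not all fall in tumor. Gm5483 had 196 to 565 reads per tumor library, against 81 to 127 for the sum, and did not pass between any compartments. 2010005H15Rik was higher in tumor (31 to 93 reads per library), and BC117090 was lower there than in bone marrow (1 to 6 reads). The defining neutrophil genes summed to 10900 to 12900 RPM in tumor, 33400 to 34100 in blood and 49500 to 50300 in bone marrow. The part of this difference in the stefin A ratios was not tested. The makeup of the sum differed between compartments, a measure that does not depend on library size. Stfa2l1 took 50.4% to 53.7% of the stefin A reads in bone marrow (95% exact intervals from 45.0% to 60%), 77.0% to 77.4% in blood (70.3% to 83.6%) and 68.5% to 76.5% in tumor (59.7% to 85.2%). Stfa1 took 17.9% to 20.8% in bone marrow, 10.4% to 12.3% in the blood and 8.64% to 14.2% in tumor. BC100530 took 13.4% to 16.0% in bone marrow, 4.93% to 8.0% in the blood and 3.39% to 7.87% in tumor. The shares of Stfa2l1, Stfa1 and BC100530 in bone marrow did not overlap with those in blood or tumor. Those of Stfa2 and Stfa3 did overlap between bone marrow and tumor. Stfa2 took 8.01% to 9.9% in bone marrow and 4.72% to 11.9% in tumor, and Stfa3 2.97% to 7.12% and 0% to 4.72%. Exact intervals of single libraries overlapped in part. For Stfa1 they were 13.5% to 23.0% in bone marrow replicate 3 and 8.62% to 21.5% in tumor replicate 1. For BC100530 they were 9.0% to 18.8% in bone marrow replicate 2 and 2.77% to 15.4% in tumor replicate 3. Shares of the same sum are not independent, and they rest on the uncertain assignment of reads between paralogs. Intervals cover counting error only, since reads were not corrected for PCR duplicates.

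RefSeq starts (GRCm38.p6) were at hand for Stfa1, Stfa2, Stfa2l1, Stfa3 and Slpi. Over the 250 bases before the start, the 4 stefin A promoters were 80.2% to 89.4% identical, with Stfa2 and Stfa2l1 the most alike. Each holds TTTAAA, an AT-rich motif like the TATA box, at 29 to 33 bases before the start. The 30 bases around it are shown 5′ to 3′ on the strand of the gene, with this motif in capitals.
Stfa1, chr16:36277106-36277135, plus strand: ctttcggataccTTTAAAaccctgagtctc
Stfa2, chr16:36408375-36408404, minus strand: cttacagaaaccTTTAAAaccctgagtctc
Stfa2l1, chr16:36156766-36156795, plus strand: tttacagaaaccTTTAAAaccctgagtctc
Stfa3, chr16:36455406-36455435, minus strand: ttacagataaccTTTAAAaccccgagtctc
On either strand TTTAAA was found in 12.08% of the 32851 promoters of the same length, and not in that of Slpi. Of 3 other stefin A-like genes with a promoter in the table, Csta1 and Csta3 held it and Csta2 did not. It was looked for after the sequences had been seen. Of the other motifs searched on both strands, TATAAA (12.37% of all promoters) was in none of the 5 promoters. TTGCNNAA, a core of C/EBP sites, was in those of Stfa1 and Slpi (9.56% of all), and GGAAGT, a core of ETS sites, was in those of Stfa2, Stfa2l1 and Slpi (19.74% of all). The motifs describe sequence only. In GENCODE, the stretches of Stfa1 and Stfa2 lie in the first exon of a longer transcript.

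Cstb, the stefin B gene, was higher in tumor than in blood and bone marrow. Its log2 FPKM was 2.03, 2.30 and 2.48 in bone marrow, 2.45, 2.02 and 2.27 in blood, and 5.40, 5.29 and 4.45 in tumor. These values rested on 53 to 72, 42 to 44 and 338 to 575 reads per library. Every tumor library was above all others, and blood and bone marrow overlapped. Cstb was 6.95-fold higher in tumor than in blood (log2 fold change 2.80, standard error 0.26, limma adjusted p = 5.5e-05) and 6.85-fold higher than in bone marrow (log2 fold change 2.78, standard error 0.26, adjusted p = 7.01e-05). Over the 22 alternatives the first value ranged from 2.56 to 3.25 and the second from 2.55 to 3.23, all called. The difference between blood and bone marrow was -0.02 (standard error 0.26, adjusted p = 0.966). Cstb is expressed by many cell types, and the markers of tumor epithelium, fibroblasts, acinar cells and endothelium given above were highest in the same tumor libraries. Their part in the level of Cstb, and that of macrophages, was not tested.

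Slpi reached its highest values in blood. The log2 FPKM of Slpi was 3.56, 3.59 and 3.47 in bone marrow, 4.41, 4.30 and 4.05 in blood, and 3.34, 3.47 and 2.93 in tumor, from 2124 to 3859 reads per library. All blood libraries were above the others, while the lowest bone marrow and the highest tumor library overlapped, both rounding to 3.47. Slpi was 2.01-fold lower in tumor than in blood (log2 fold change -1.01, standard error 0.155, limma adjusted p = 0.000732), and the value with plain library totals was -0.56 (adjusted p = 0.00629). It was 1.65-fold higher in blood than in bone marrow (log2 fold change 0.72, standard error 0.155, adjusted p = 0.00707). Both calls held in all 22 alternatives. The difference of -0.29 between tumor and bone marrow did not pass (standard error 0.155, adjusted p = 0.149), and with plain library totals it was 0.16 in the other direction (adjusted p = 0.326).

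Serpinb1a showed the largest difference among the members. The log2 FPKM of Serpinb1a was 7.04, 7.23 and 7.20 in bone marrow, 2.58, 2.96 and 2.78 in blood, and 4.58, 3.73 and 4.44 in tumor, from 7717 to 8855, 214 to 395 and 914 to 1565 reads per library. The compartments were far apart, with tumor between bone marrow and blood. Serpinb1a was 20.8-fold lower in blood than in bone marrow (log2 fold change -4.38, standard error 0.216, limma adjusted p = 1.4e-05) and in tumor 7.49-fold lower than in the marrow (log2 fold change -2.90, standard error 0.216, adjusted p = 2.15e-05). It was 2.78-fold higher in tumor than in blood (1.48, standard error 0.216, adjusted p = 0.000571). All 3 calls held in all 22 alternatives. A list of 12 genes of immature neutrophils had the same order of summed levels, 74000 to 82300 RPM in bone marrow, 1910 to 2990 in the blood and 6820 to 10800 in tumor, and all 12 had reads in each compartment. Not every gene of the list followed that order on its own. In tumor against blood, Elane was called higher (limma adjusted p = 0.0239, lost in 6 of 22 alternatives). Prtn3 (0.648) and Ctsg (0.225) did not pass. The markers of tumor epithelium, fibroblasts and acinar cells given above were highest in the tumor libraries. The part of immature neutrophils and of such other cells in the values of Serpinb1a was not tested.

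**Figure D3:**
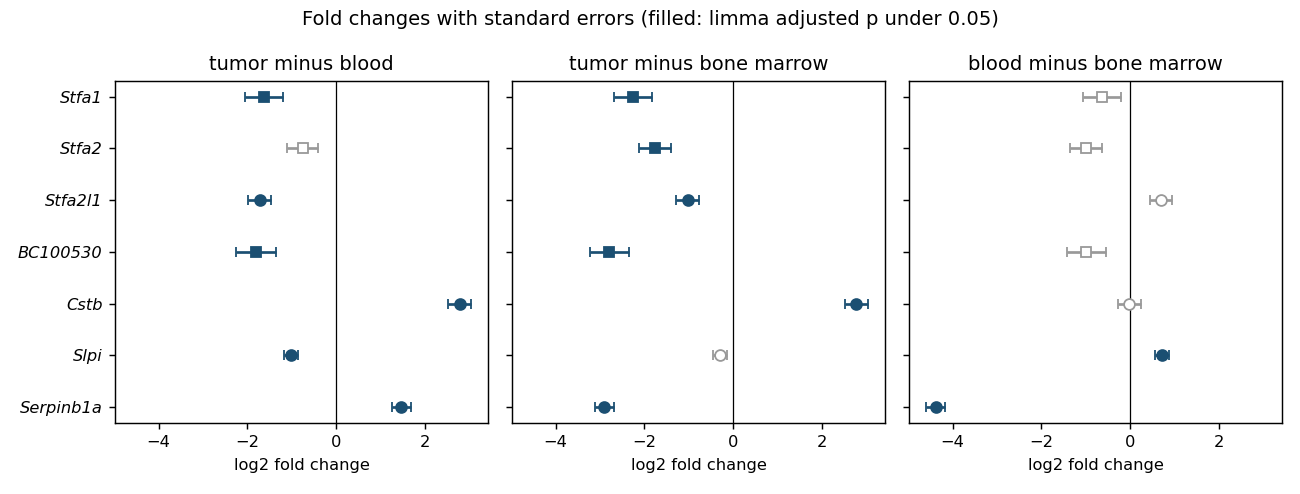
Log2 fold changes between compartments (x axis) are drawn with their standard errors for 7 genes, as circles where limma was fitted with the filter on log2 FPKM and as squares where it was fitted with the filter on reads. Filled symbols have an adjusted p under 0.05, Cstb stands at 2.80 and 2.78 in the tumor contrasts and Serpinb1a at -4.38 in blood against bone marrow. Stfa3 is left out because blood held 0 to 2 reads per library.

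To compare levels between genes, reads were divided by the exon length of each gene and by the scaled library size. In bone marrow, Serpinb1a was highest with 563 ± 39.3 reads per kilobase of exon and 1000000 reads (SD, n = 3), followed by Slpi with 345 ± 14.3, Stfa2l1 with 52.5 ± 7.79 and Cstb with 15.7 ± 2.42. Stfa1 (11.2 ± 1.59), Stfa2 (8.13 ± 0.556), BC100530 (8.03 ± 2.10) and Stfa3 (4.86 ± 3.36) came last. The ranges of Stfa2, BC100530 and Stfa3 overlapped, as did those of Stfa1 and BC100530, so these neighbours did not differ beyond their spread. In blood the order was Slpi (570.0 ± 71.2), Stfa2l1 (86.1 ± 18.7), Serpinb1a (27.1 ± 3.6) and Cstb (15.4 ± 2.28), with Stfa1 at 7.45 ± 2.05, Stfa2 at 4.11 ± 1.13, BC100530 at 4.05 ± 1.21 and Stfa3 at 0.495 ± 0.447. Here Stfa2 and BC100530 overlapped with each other and with Stfa1. In tumor it was Slpi (286 ± 53.2), Cstb (111 ± 35.5), Serpinb1a (77.4 ± 22.0) and Stfa2l1 (26.4 ± 7.44), and the 4 others lay between 0.889 and 2.58 on average. Cstb and Serpinb1a overlapped in tumor, as did these 4 stefin A genes. Cstb thus stood 3 places behind Serpinb1a in bone marrow and next to it in tumor.

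**Figure D4:**
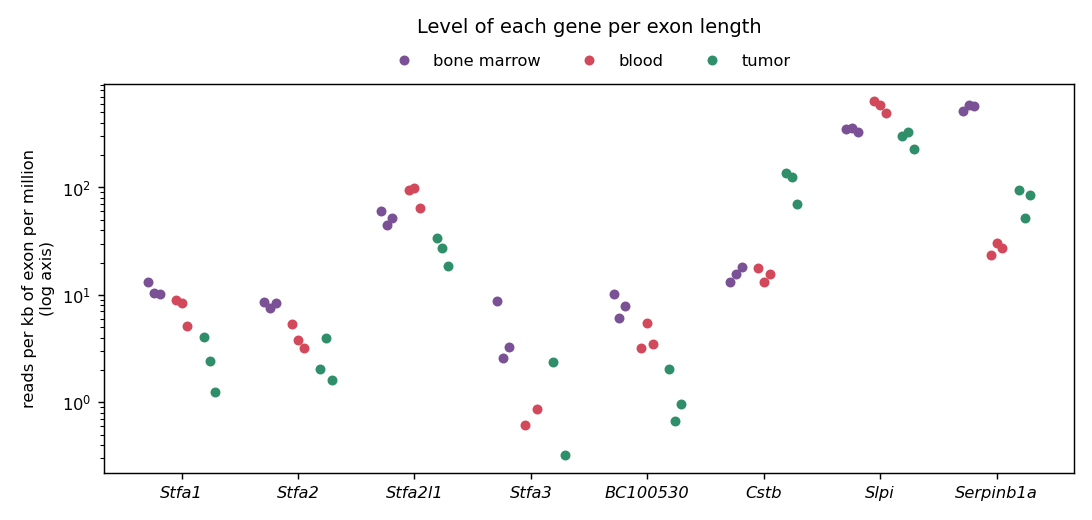
Each point is 1 library, on a logarithmic axis of reads per kilobase of exon per 1000000 of scaled library size, with 3 libraries per compartment. Slpi stays between 227 and 633 in all libraries and Serpinb1a spans 23.5 to 592, and 2 libraries in which Stfa3 had 0 reads are not drawn.

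The proteases that these inhibitors act on, and their other relatives, gave a mixed picture. Of all 7794 genes tested in the main fit, 28.1% were called higher and 34.5% lower in tumor than in blood. Against bone marrow these shares were 22.4% and 32.9%. Of 10 papain-like cathepsins listed, the targets of stefins, 7 were tested. Against blood, 3 were higher in tumor (Ctsl, Ctsb and Ctsz) and 1 was lower (Ctsw, which passed the filter only through its blood libraries), with a median log2 fold change of 0.00 where that of all genes tested was -0.17. Against bone marrow, 4 were higher (the same 3 and Ctss) and 2 lower (Ctsh and Ctsc), with a median of 1.07 against -0.21 over all genes. With plain library totals neither Ctsh (log2 fold change -0.26, adjusted p = 0.229) nor Ctsc (-0.35, adjusted p = 0.256) passed. The calls of Ctsc (0.0994) and Ctss (0.0552) were also lost with no filter, and that of Ctsc without bone marrow replicate 1 (0.0517), bone marrow replicate 3 (0.0618) or tumor replicate 3 (0.0601). For Ctsb, the gene for cathepsin B, log2 FPKM averaged 4.26 ± 0.10 in the marrow, 4.62 ± 0.05 in blood and 6.04 ± 0.27 in tumor (SD over 3 libraries). Ctsb was higher in tumor than in blood by 1.42 (limma adjusted p = 5.68e-05), as was Ctsl, for cathepsin L, by 2.97 (adjusted p = 6.27e-06). The markers of tumor epithelium, fibroblasts and acinar cells given above were highest in the same tumor libraries. The part of such cells, and that of macrophages, in the levels of these cathepsins was not tested. Ctsw, for a cathepsin of natural killer and T cells, had 26 to 45 reads per blood library and 2 to 9 per tumor library. It was lower in tumor than in blood (log2 fold change -4.00, reads-filtered limma, adjusted p = 0.00147, and 0.000248 in limma-voom). The lymphocyte markers given above were highest in blood too. Their part was not tested.

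The neutrophil serine proteases listed were Elane, Prtn3, Ctsg and Prss57, of which the first 3 are also on the list of immature neutrophil genes. Prtn3 and Ctsg passed the filter only through their bone marrow libraries, so the main test took them in for a high level there. With the filter on reads, limma also called both lower in tumor than in bone marrow (adjusted p = 1.35e-05 for Prtn3 and 0.000405 for Ctsg). The same held for blood against bone marrow (4.59e-05 and 0.000357). The other 2, Elane and Prss57, were called lower than in bone marrow in both blood and tumor, though Prss57 not in blood with quantile normalization (adjusted p = 0.095). Elane was above 0 in 3 bone marrow, 0 blood and 2 tumor libraries, and Prss57 in 3, 3 and 0. Both thus also passed the filter through compartments where they were high. With the filter on reads, limma called both lower in tumor than in bone marrow. The log2 fold changes were -6.90 for Elane (adjusted p = 0.00308) and -3.97 for Prss57 (adjusted p = 1.13e-05). For blood against bone marrow it called both lower as well (0.000536 and 0.00939). Elane, the gene for neutrophil elastase, had 1479 to 2306 reads per bone marrow library, 0 to 9 per blood library and 10 to 31 per tumor library. In tumor against blood it was called higher (limma adjusted p = 0.0239), which was lost in 6 of 22 alternatives. These were no filter (0.135), only the 2 compartments compared (0.063), and the fits without blood replicate 1 (0.0774), blood replicate 3 (0.0774), tumor replicate 2 (0.0562) or tumor replicate 3 (0.0698). Prss57, for neutrophil serine protease 4, was lower in tumor than in blood (log2 fold change -2.78, standard error 0.255, reads-filtered limma, adjusted p = 5.57e-05). Prtn3 and Ctsg did not pass against blood (adjusted p = 0.648 and 0.225).

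Among relatives of the stefins, 1 of the 6 stefin A-like genes in the table was tested, Gm5483, which lies in the same cluster at chr16:36184212-36188111. Gm5483 had 196 to 565 reads per library and did not pass between any compartments, with a log2 fold change of -0.19 from blood to tumor (limma adjusted p = 0.689), and of 0.10 for tumor and 0.29 for blood when set against bone marrow (adjusted p = 0.844 and 0.576). Other relatives were below this filter. Of these, 2010005H15Rik, in the same cluster at chr16:36221468-36257444, is named after its values were seen. It had 31 to 93 reads per tumor library, 2 to 5 per blood library and 1 to 8 per bone marrow library. For 2010005H15Rik the log2 fold change in tumor was 3.20 to blood (standard error 0.851, reads-filtered limma, adjusted p = 0.0128, and 0.00417 in limma-voom) and 3.48 to bone marrow (adjusted p = 0.0105 and 0.0022). With no filter the first was not called (0.0554). Its coding sequence was 96.9% identical to that of Gm5483, so reads could be shared. BC117090, also named after its values were seen, had 1 to 6 reads per tumor library and 4 to 27 per bone marrow library. It was lower in tumor than in bone marrow (log2 fold change -2.40, reads-filtered limma, adjusted p = 0.0319, and 0.0243 in limma-voom). With no filter this was not called (limma adjusted p = 0.121). The coding sequence of BC117090 was 96.2% identical to that of BC100530 and 94.4% to that of Stfa1, so reads could be shared here too. Of 10 other cystatins, 2 were tested. Cst3, for the secreted cystatin C, was lower in tumor than in blood (log2 fold change -1.49, standard error 0.257, adjusted p = 0.00135) and than in bone marrow (log2 fold change -0.81, adjusted p = 0.0281). For Cst3 the second call was lost with plain library totals (-0.36, adjusted p = 0.233), no filter (0.148), quantile normalization (0.102), and without bone marrow replicate 1 (0.0712), bone marrow replicate 2 (0.0886), tumor replicate 2 (0.0713) or tumor replicate 3 (0.0799). The other, Cst7, passed the filter only through its bone marrow libraries, with 69 to 113 reads there, 3 to 11 per blood library and 1 to 12 per tumor library. Its lower level in blood than in bone marrow was called by reads-filtered limma (adjusted p = 0.0255) and by limma-voom (0.00117). The call of the main fit was lost with no filter (0.135), quantile normalization (0.0932), and without blood replicate 3 (0.0704) or bone marrow replicate 1 (0.0663), 2 (0.0506) or 3 (0.0636).

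Of 26 other clade B serpins, 2 were tested, Serpinb6b and Serpinb9. Both passed the filter only through their tumor libraries, so the main test took them in for a high level there. With the filter on reads, limma also called Serpinb6b higher in tumor than in blood (adjusted p = 0.00194). Of the 10 with 5 reads in a library, limma-voom called 4 higher and 0 lower in tumor than in blood. Of all 17714 genes, 33.1% were called higher and 21.9% lower. Against bone marrow it called 5 higher and 1 lower, where 29.3% and 21% of all genes were. Serpinb9 encodes an inhibitor of granzyme B. Its log2 FPKM averaged -3.84 ± 0.93 in the marrow, -0.56 ± 0.55 in blood and 2.75 ± 0.38 in tumor (SD over 3 libraries). This was a rise of 3.31 over blood (reads-filtered limma, adjusted p = 0.000677, and 3.34e-06 in limma-voom). Serpinb6b had 583 to 876 reads per tumor library and at most 11 in any other library. Of 20 other genes with WAP domains, the domain of Slpi, 4 were tested. Against blood, 3 were lower in tumor (Wfdc17, Wfdc18 and Wfdc21), as Slpi was, and 1 was higher (Wfdc2). Wfdc18 passed the filter only through blood and Wfdc2 only through tumor. Wfdc17, the most abundant of them in log2 FPKM, was lower in tumor than in blood (log2 fold change -2.68, standard error 0.18, adjusted p = 1.2e-05) and higher in blood than in bone marrow by 3.08 (adjusted p = 2.01e-05). Wfdc18, with 17 to 43 reads per blood library and 1 to 7 per tumor library, was lower too. Its log2 fold change was -4.18 (reads-filtered limma, adjusted p = 0.0186, and 0.000892 in limma-voom). The call of the main fit was lost with no filter (0.108) and without blood replicate 3 (0.0605), tumor replicate 2 (0.0611) or tumor replicate 3 (0.0628). Wfdc2 had 90 to 239 reads per tumor library and at most 3 in any other. The markers of tumor epithelium, fibroblasts and acinar cells were highest in the same tumor libraries. Their part in the values of Wfdc2, Serpinb6b and Serpinb9 was not tested.

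Of 19 other secreted inhibitors of serine proteases, 5 were tested. In tumor, 4 were higher than in blood and 5 higher than in bone marrow, but 3 of them passed the filter only through tumor, so these counts were largely set by the filter. Of the 13 with 5 reads in a library, limma-voom called 7 higher and 1 lower in tumor than in blood (33.1% and 21.9% of all genes). Against bone marrow it called 8 higher and 1 lower in tumor (29.3% and 21% of all genes). In blood 1 (Spint1) was called higher than in bone marrow, which was lost in 10 of 21 alternatives (adjusted p from 0.052 to 0.215 in these). Serping1, for the C1 inhibitor of complement, had 292 to 379 reads per tumor library and at most 4 in the others. Serpina3n had 83 to 103 and at most 1. Spint2, for a membrane-bound Kunitz inhibitor, was higher in tumor than in blood by 2.38 (standard error 0.263, limma adjusted p = 0.000131). The markers of tumor epithelium and fibroblasts were highest in the same tumor libraries, and their part in these values was not tested. Ctsz, Ctss, Ctsh, Ctsc, Prtn3, Ctsg, Cst7, Wfdc21 and Spint1 are likewise named here after their values were seen, to say which genes the counts hold.

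**Figure D5:**
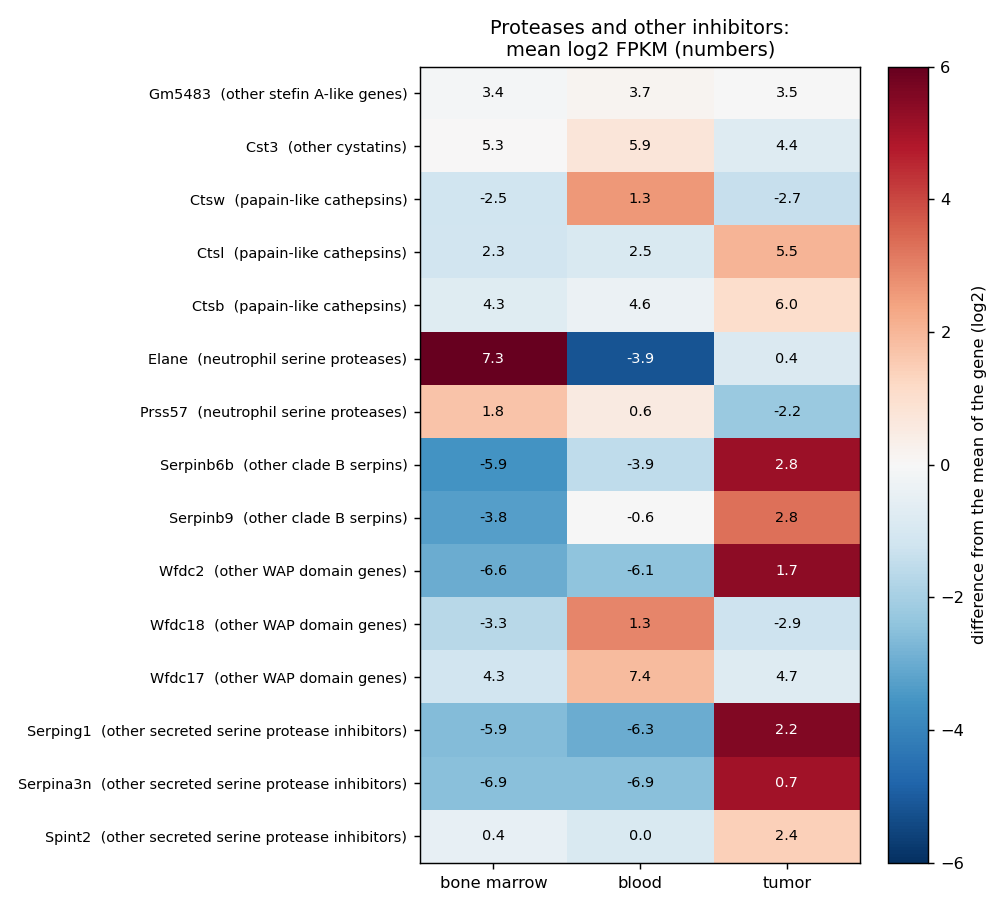
Numbers in the cells are mean log2 FPKM (n = 3 libraries per compartment) of proteases and other inhibitors chosen by a fixed rule (1 gene not reported here is left out), with the list of each gene in parentheses, and the color gives the difference from the gene's mean over the compartments. Elane falls from 7.3 in bone marrow to -3.9 in blood, whereas Ctsb, Ctsl, Serpinb9 and the secreted inhibitors are highest in tumor.

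The genes with the most similar profiles differed between members. Over the 9 libraries, which share compartments, Stfa2l1 (the stefin A member that passed the filter) was followed most closely by Lst1, Gm15478, Msrb1, Vamp8 and Supt4a, with Pearson's r from 0.973 to 0.982. Slpi was followed most closely by Nptn, Kmt2e, Fabp5, Fcgr4 and Ddx58 (r from 0.981 to 0.984), and Serpinb1a by Dstn, Nfu1, Zmpste24, Ngp and Pxylp1 (r from 0.995 to 0.997). For Cstb, which was added to this search later, they were Gm14023, Gm22816, Ccl3, Arf4 and Cish (r from 0.986 to 0.992).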

How the data were processed

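RNA sequencing of 9 neutrophil libraries was used, 3 each from bone marrow, blood and tumor. The authors made full-length cDNA (SMARTSeq v2), mapped paired reads to GRCm38 with STAR and counted them on GENCODE M7 genes with featureCounts. Per the submitters' processing notes, the versions were STAR 2.5.2b, featureCounts 1.5.0 and edgeR 3.8.6. The deposited values are log2 FPKM, with a constant of 0.25 reads added before the log for a library of mean size, as read from the values. The length equalled the genomic span for 85.1% of the genes found in GENCODE M21. All 46517 genes gave whole reads within a tolerance of 0.02.

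The main test was limma 3.58.1 (R 4.3.3, moderated by eBayes with a trend on intensity), fitted on log2 FPKM of the 7794 genes above 0 in 3 or more libraries, with 3 compartments, no covariate, Benjamini-Hochberg adjustment and a threshold of 0.05. The study's limma-voom was run as an alternative, on recovered reads of the 17714 genes reaching 5 reads in a library. Numbers of reads limit the precision for the low stefin A genes, and libraries held 4580807 to 7949367 reads. Scripts were tested on simulated data. Coding sequences were aligned globally with Biopython 1.88.

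The members and all lists were chosen with earlier results of these data known. Named genes are the members, from each list up to 3 genes with the largest absolute tumor-to-blood change among those called and the one of highest mean log2 FPKM, and the 5 genes most correlated with the stefin A members, Slpi and Serpinb1a. Of the genes so named, 1 is not reported here, although it counts in its list. Alternatives were other filters (none, log2 FPKM over 2, reads), pseudocounts of 1 and 0.1, median centring, quantile normalization, plain library totals, other variance models, only the 2 compartments compared, the replicate block, limma-voom, stefin A genes summed, and each library left out. All per-sample columns were used.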

Additional observations from a re-analysis of the deposited data

How the results depend on the processing

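Counts of called members moved with the filter, since 4 of 8 members lay below it, and with settings that moved Stfa2l1 across the threshold. For members lower in tumor than in blood, limma-voom on recovered reads and the filter of 5 reads in a library each gave 4 in place of 2. That filter was added once the data had been seen. With no filter the count was 3. For members lower in tumor than in bone marrow, the count of 2 became 4 with no filter, 1 with plain library totals, 6 with limma-voom and 5 with the filter on reads. For members higher in blood than in bone marrow, the count of 1 became 2 with a pseudocount of 1, median centring, plain library totals, only the 2 compartments compared and limma-voom, each time with Stfa2l1 added, and it ranged from 1 to 2 when libraries were left out, with 2 without blood replicate 3, tumor replicate 1 or tumor replicate 3. Members lower in blood than in bone marrow became 2 in limma-voom, with Stfa3 added. In 5 of 300 values the sign was the opposite, none of them called, namely Cstb in blood against bone marrow (median centring, without blood replicate 2 and without bone marrow replicate 3), Slpi in tumor against bone marrow (plain totals) and Stfa3 in tumor against blood (limma-voom). Plain totals raised tumor against both other compartments. Of 300 alternative values of the members' log2 fold changes, 273 kept their side of the threshold and 25 newly passed it. Another 2 no longer passed it, both of Stfa2l1 in tumor against bone marrow. Stfa1, Stfa2, Stfa3 and BC100530 had no main test and were counted here as not past the threshold. Of the 25, 9 were of Stfa2l1 in blood against bone marrow, and the rest were of these 4 untested genes.

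With the replicate block, 2 members were higher in blood than in bone marrow in place of 1, since the adjusted p of Stfa2l1 was then 0.0299. Whether libraries of the same number came from the same experiment could not be settled from the values. With 3 libraries per compartment, the correlations that follow cannot show that pairing was absent. Deviations of same-numbered libraries correlated between -0.071 and 0.108 (9 pairs) and those of different numbers between -0.098 and 0.106 (18 pairs), and 4 of 9 libraries correlated best with their own number. Depth limits Stfa3, with at most 24 reads in a library, and the tumor values of Stfa1, Stfa2 and BC100530, with 4 to 18 reads.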
